A study of Mus musculus with 5 samples.

Results

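Vitamin A handling was examined in mouse small intestine through 9 genes: Rbp2, Lrat, Rdh7, Dhrs3, Bco1, Isx, Aldh1a1, Aldh1a2 and Cyp26b1. They were taken by symbol, and all 9 were among the 19198 genes of the deposited count table. The intestine came from 2 Cre-positive mice, which carried the Math1Cre*PR transgene with both mAchR4 alleles floxed (mAchR4 fl/fl), and from 3 Cre-negative mAchR4 fl/fl mice, which the series' design text calls littermates. Cre*PR is a Cre recombinase joined to a progesterone receptor domain and acts once the animal receives RU486, a progesterone receptor ligand. Math1 (Atoh1) is the transcription factor of the secretory lineage, so the targeted cells are goblet, Paneth and enteroendocrine cells and their precursors, not the absorptive enterocytes that hold most of the proteins described here. Every mouse of both groups had been dosed with RU486 at 10 mg/kg on each of 4 days. The design text speaks of whole small intestine, the sample labels give neither a stretch of intestine nor the ages of the mice, and there was no Cre-positive mouse with unfloxed receptor alleles.

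Vitamin A reaches the intestine as carotenoids from plants and as retinyl esters from animal food. Enterocytes cleave carotenoids to retinal, reduce retinal to retinol, hold both on a small binding protein and re-esterify retinol for export in chylomicrons. A minor part is oxidized to retinoic acid, the ligand of the RAR nuclear receptors, which the CYP26 enzymes then degrade. Retinoic acid made in the gut also instructs lymphocytes to home to the intestine. Several of these genes are known to be expressed at higher levels in the upper than in the lower small intestine.

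Total RNA was sequenced after ribosomal RNA removal, with totals of 4681119 to 6618204 estimated counts per library. Chrm4, the targeted M4 muscarinic receptor gene, had 13 and 5 counts in Cre-positive mice 1 and 2, against 4, 20 and 4 counts in Cre-negative mice 1, 2 and 3, too few to check the genotype labels. All 12 general enterocyte markers were detected, and of 10 exocrine pancreas markers Cela1 alone was in the table used, at 1.24 to 2.59 CPM (counts scaled to library size, by TMM). Markers of gut position differed widely between libraries of the same genotype. Of the markers tested, 9 of 10 proximal ones had negative log2 fold changes of Cre-positive against Cre-negative (median -0.65) and 9 of 11 distal ones positive values (median 0.27), and edgeR called none. Lct, the lactase gene of the upper intestine, measured 3.48 and 632 CPM in Cre-positive mice 1 and 2, against 259, 15.8 and 881 CPM in Cre-negative mice 1, 2 and 3. Slc10a2, the bile acid transporter gene of the ileum, measured 810 and 45.9 CPM in Cre-positive mice 1 and 2, against 218, 376 and 6.52 CPM in Cre-negative mice 1, 2 and 3. Cre-positive 1 thus stood at the low end for lactase and the high end for the ileal transporter, and Cre-negative 3 stood at the opposite ends. Not all markers of either list shared these ends, as given below.

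The proximal promoters of Rbp2 and Bco1 are shown first, because these genes stand at the top and the bottom of the levels given below and retinoid and fatty acid receptors are known to act on both. Capitals mark matches to nuclear receptor half-sites (AGGTCA), direct repeats of that half-site with any 1 base between the copies (DR1), GATA factor sites (AGATAA) and sites of CDX type (TTTATNG), on either strand. Each stretch lies on the plus strand of GRCm38, comes from RefSeq and ends before the start site.
Rbp2, chr9:98490287-98490536: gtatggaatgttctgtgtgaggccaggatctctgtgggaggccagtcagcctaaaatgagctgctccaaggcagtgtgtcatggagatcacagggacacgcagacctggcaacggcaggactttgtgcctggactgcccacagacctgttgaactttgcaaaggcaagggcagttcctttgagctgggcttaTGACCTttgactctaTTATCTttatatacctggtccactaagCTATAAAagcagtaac
Bco1, chr8:117095615-117095853: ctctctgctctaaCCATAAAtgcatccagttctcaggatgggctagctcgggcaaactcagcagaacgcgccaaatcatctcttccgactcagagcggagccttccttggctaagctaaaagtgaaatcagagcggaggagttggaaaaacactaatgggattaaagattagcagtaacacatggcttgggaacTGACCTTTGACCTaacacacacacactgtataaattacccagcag
The Bco1 stretch held a DR1 repeat on the minus strand, and its copies of AGGTCA are the same bases. Of 32851 RefSeq promoter windows of 250 bases, 0.0335% held the DR1 repeat, 14% held AGGTCA, 9.99% held AGATAA and 9.81% held TTTATNG. The Rbp2 stretch held 1 match each to the half-site, the GATA pattern and the CDX-type pattern, all within 58 bases of the RefSeq start. Its CDX-type match, CTATAAA, contains TATAAA, so the pattern alone does not identify a CDX site. The stretch lies in an intron of a longer GENCODE transcript. All 9 genes had at least 1 such window. Among the other 7 genes Rdh7 matched the half-site, Aldh1a1 the GATA pattern and Dhrs3 and Cyp26b1 the CDX-type pattern.

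By genotype, no gene of the 9 passed the test, and the CPM values of Cre-positive and Cre-negative mice overlapped for all 9. The test was edgeR's quasi-likelihood test over the 14352 genes that passed a filter on low counts, and 8 of the 9 genes passed that filter. It called 0 of these 8, and 0% of all genes tested (lowest adjusted p = 0.977). Among all genes tested, 18% had groups without overlap, 7.89% with Cre-positive higher and 10.2% with Cre-positive lower. At an unadjusted p under 0.05 there were 0 of the 8 genes and 3.38% of all genes tested (485 genes). DESeq2 called 0 of the 8 as well, and 0.132% of all genes (19 genes), while limma-voom called 0 genes. With 2 mice against 3 the 95% interval given for each gene shows what size of change the data leave possible.

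Rbp2 (chr9:98486115-98509781 on the plus strand, GRCm38) encodes retinol-binding protein II, the abundant carrier of retinol and retinal in enterocytes. It gave 62 and 594 counts (12 and 92.3 CPM) in Cre-positive mice 1 and 2, against 248, 161 and 751 counts (59.4, 29.8 and 122 CPM) in Cre-negative mice 1, 2 and 3. Cre-positive 1 was lowest and Cre-negative 3 highest, and Cre-positive 2 lay inside the Cre-negative range. Cre-positive 2 was 7.70 times Cre-positive 1 (exact 95% counting interval 5.92 to 10.2), while the group means of 52.2 ± 56.8 CPM (SD, n = 2) in Cre-positive mice and 70.5 ± 47.2 CPM (SD, n = 3) in Cre-negative mice differed by less than their spread. Over the groups the log2 fold change (Cre-positive over Cre-negative, as for all that follow) was -0.43 ± 0.91 (SE; 95% interval -2.64 to 1.78; edgeR adjusted p = 0.977). It was 0.42 without Cre-positive 1 and 0.27 without Cre-negative 3, so its sign rested on single mice.

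Lrat (chr3:82892579-82903973, minus strand) encodes lecithin:retinol acyltransferase, which esterifies the retinol held by retinol-binding protein II. It measured 7.16 and 22.5 CPM in Cre-positive mice 1 and 2, against 22.3, 10.0 and 17.9 CPM in Cre-negative mice 1, 2 and 3. Cre-positive 1 and Cre-negative 2 were again the lowest libraries, and the highest was Cre-positive 2. For Lrat the log2 fold change was -0.16 ± 0.54 (95% interval -1.43 to 1.11; edgeR adjusted p = 0.982), and it was 0.47 without Cre-positive 1.

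Rdh7 (chr10:127884028-127888817, minus strand) encodes a microsomal short-chain dehydrogenase that oxidizes retinol, and steroids, in the mouse. It gave 1 and 67 counts (0.194 and 10.4 CPM) in Cre-positive mice 1 and 2, against 43, 4 and 72 counts (10.3, 0.741 and 11.7 CPM) in Cre-negative mice 1, 2 and 3. In both groups the gene was near its detection limit in 1 mouse, where 3 counts would be 0.581 CPM for Cre-positive 1 and 0.556 CPM for Cre-negative 2, and it stood between 10.3 and 11.7 CPM in the other mice. Cre-positive 2 was 53.8 times Cre-positive 1 (exact 95% counting interval 9.33 to 2157), and Cre-negative 3 was 15.8 times Cre-negative 2 (5.92 to 59.7). For Rdh7 the log2 fold change was -0.48 ± 1.34 (95% interval -3.75 to 2.79; edgeR adjusted p = 0.981), and it was 0.50 without Cre-positive 1. Rdh7 lies in a chromosome 10 cluster of near-identical genes. Its counts were whole in all 5 libraries, within 0.005, while those of Rdh9 were not whole in 4 libraries, those of Rdh16 in 3 and those of Rdh1 in 5, and how reads were assigned to these genes was not given in the sources used here.

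Dhrs3 (chr4:144892827-144928209, plus strand) encodes the reductase that returns retinal to retinol and so limits retinoic acid. It measured 23.0 and 43.7 CPM in Cre-positive mice 1 and 2, against 44.8, 30.4 and 53.8 CPM in Cre-negative mice 1, 2 and 3. The lowest library was Cre-positive 1 and the highest Cre-negative 3, with a range of 2.33-fold over the 5 mice. Its log2 fold change was -0.36 ± 0.36 (95% interval -1.22 to 0.49; edgeR adjusted p = 0.977), and it was 0.06 without Cre-positive 1.

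**Figure D1:**
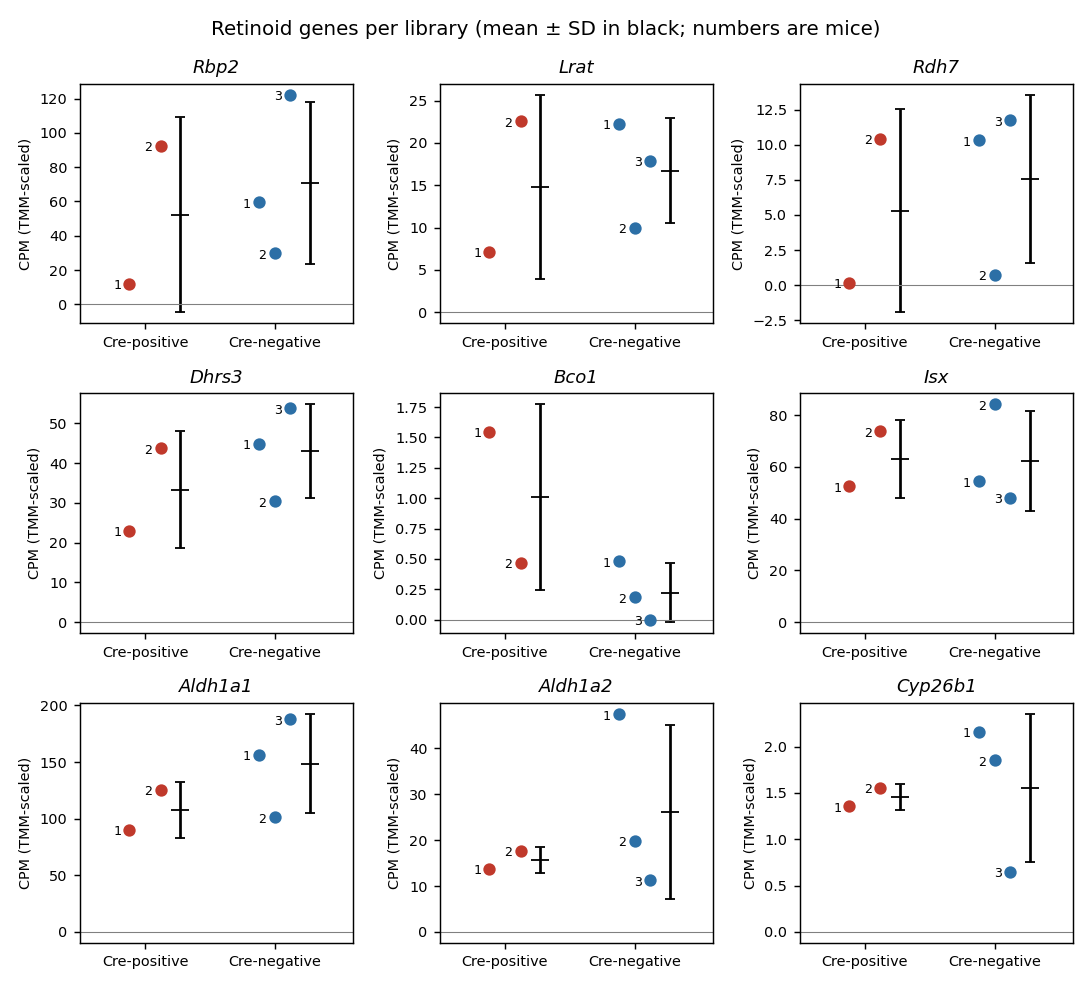
CPM of the 9 genes (vertical axes, linear, TMM-scaled) in each Cre-positive (red) and Cre-negative (blue) library, with mouse numbers beside the points and the mean ± SD in black. In every panel the groups overlap; Rbp2 spans 12 to 122 CPM and Isx 48.1 to 84.1 CPM.

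Rbp2 and Rdh7 shared 1 order of libraries, from Cre-negative 3 through Cre-positive 2, Cre-negative 1 and Cre-negative 2 down to Cre-positive 1. For Rdh7 the counts did not resolve this full order. Its exact 95% counting intervals overlapped among Cre-negative 3, Cre-positive 2 and Cre-negative 1. They also overlapped between Cre-negative 2 (4 counts) and Cre-positive 1 (1 count). Of the 10 markers of proximal intestine that were tested, 7 had this order (Gata4, Lct, Fabp1, Apoa4, Khk, Slc2a2 and Creb3l3), as did 2.31% of all genes tested and 0 of 11 markers of distal intestine. Gata4, the transcription factor gene that separates jejunum from ileum, measured 0.387 and 39.9 CPM in Cre-positive mice 1 and 2, against 24.7, 19.8 and 47.4 CPM in Cre-negative mice 1, 2 and 3. Slc2a2, the basolateral glucose and fructose transporter gene, measured 0.581 and 147 CPM in Cre-positive mice 1 and 2, against 84.1, 9.08 and 349 CPM in Cre-negative mice 1, 2 and 3. The summed level of the proximal markers was 349 and 1793 CPM in Cre-positive mice 1 and 2, against 1038, 359 and 2608 CPM in Cre-negative mice 1, 2 and 3. Slc40a1, Cybrd1 and Onecut2 of the same list did not have the Rbp2 order, and Slc40a1, the iron exporter gene, was highest in Cre-positive 1 at 234 CPM. The summed distal markers were 4281 and 3036 CPM in Cre-positive mice 1 and 2, against 3452, 2516 and 1543 CPM in Cre-negative mice 1, 2 and 3. Slc10a2, Slc51b, Tmigd1 and Nr1h4 of that list were highest in Cre-positive 1 and lowest in Cre-negative 3, and the others were not. Cubn and Fgf15 were highest in Cre-negative 1, Fabp6 and Slc51a in Cre-negative 2, and Osr2 and Amn in Cre-positive 2. Amn was lowest in Cre-positive 1, at 18.6 CPM. Whether position along the intestine had a part in the levels of Rbp2, Rdh7 and Lrat was not tested.

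**Figure D2:**
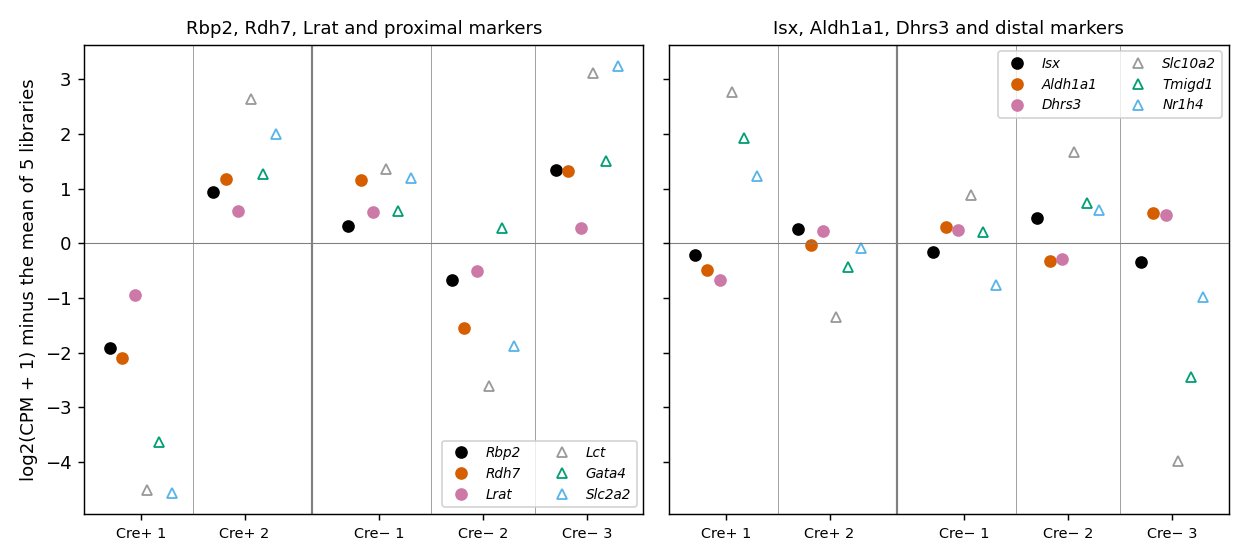
Difference of each library's log2(CPM + 1) from the gene's mean over the 5 libraries (vertical axis), for retinoid genes (filled circles) and markers of gut position (open triangles), by library (horizontal axis, Cre+ for Cre-positive and Cre− for Cre-negative). Rbp2, Rdh7 and Lrat are low in Cre-positive 1 and Cre-negative 2, as are Lct and Slc2a2. Gata4 is low in Cre-positive 1 only, at 0.387 CPM against 19.8 CPM in Cre-negative 2. Isx, Aldh1a1 and Dhrs3 span a narrower range than the distal markers Slc10a2 and Tmigd1. This does not hold for the whole distal list, where Osr2, not shown, ranged over 1.38-fold against 1.75-fold for Isx.

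General enterocyte genes ranged over 1.46-fold (Epcam) to 6.91-fold (Treh) between the highest and lowest of the 5 mice, where Rbp2 ranged over 10.2-fold and Lrat over 3.15-fold. Of the 12, Treh, Mep1a (4.93-fold), Alpi (4.66-fold) and Sis (4.29-fold) ranged over more than Lrat, and Sis and Slc5a1 had the library order of Rbp2. Vil1, the villin gene of the microvillus core, measured 603 and 1066 CPM in Cre-positive mice 1 and 2, against 914, 738 and 916 CPM in Cre-negative mice 1, 2 and 3, a range of 1.77-fold. The groups did not overlap for 4 of the 12 (Cdh17, Anpep, Krt20 and Epcam), all higher in Cre-positive mice, beside 7.89% of all genes tested, and edgeR called none. The standard deviation of log2(CPM + 1) over the 5 libraries was 1.31 for Rbp2 and 1.67 for Rdh7, where the median gene tested had 0.34 and the 99th percentile was 1.37. It was 0.69 for Lrat, 0.76 for Aldh1a2 and 0.48 for Dhrs3, and it lay near the median gene for Isx at 0.34. In whole tissue, fewer cells of a type and less RNA per cell cannot be told apart.

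Bco1 (chr8:117095854-117133720, plus strand), the enzyme that cleaves beta-carotene to retinal, was scarce. It gave 8 and 3 counts (1.55 and 0.466 CPM) in Cre-positive mice 1 and 2, against 2, 1 and 0 counts (0.479, 0.185 and 0 CPM) in Cre-negative mice 1, 2 and 3, and a floor of 3 counts would be 0.489 CPM in the library with 0. Cre-positive 1 was the highest library, and Cre-positive 2 lay just under Cre-negative 1. Summed counts were 11 in Cre-positive and 3 in Cre-negative libraries, a ratio of 4.96 with an exact 95% interval of 1.31 to 27.7 that covers counting error and not the spread between mice, and 8 of the 11 counts came from Cre-positive 1. Bco1 did not pass the filter. Fitted without a filter, its log2 fold change was 2.23 ± 1.2 (95% interval -0.52 to 4.97; edgeR adjusted p = 0.982).

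Isx (chr8:74873173-74893506, plus strand), the intestine-specific homeobox factor that represses Bco1 and Scarb1 when retinoic acid is plentiful, had levels that differed little between the groups. It measured 52.4 and 73.7 CPM in Cre-positive mice 1 and 2, against 54.4, 84.1 and 48.1 CPM in Cre-negative mice 1, 2 and 3. Its highest library was Cre-negative 2 and its lowest Cre-negative 3, so it did not have the library order of Rbp2. The means were 63.1 ± 15.0 CPM (SD, n = 2) in Cre-positive mice and 62.2 ± 19.3 CPM (SD, n = 3) in Cre-negative mice. This gave a log2 fold change of 0.02 ± 0.31 (95% interval -0.70 to 0.74; edgeR adjusted p = 0.994). Scarb1, the scavenger receptor gene for carotenoid uptake, gave 5 and 4 counts (0.968 and 0.622 CPM) in Cre-positive mice 1 and 2, against 17, 6 and 14 counts (4.07, 1.11 and 2.28 CPM) in Cre-negative mice 1, 2 and 3. Its groups did not overlap, Cre-positive being lower, but it did not pass the test (log2 fold change -1.61 ± 0.75; edgeR adjusted p = 0.977).

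Aldh1a1 (chr19:20492715-20643465, plus strand) encodes retinal dehydrogenase 1, which turns retinal into retinoic acid in the epithelium, and it had the most counts of the 9 genes. It measured 90.2 and 125 CPM in Cre-positive mice 1 and 2, against 156, 101 and 188 CPM in Cre-negative mice 1, 2 and 3. The lowest library was Cre-positive 1, and Cre-positive 2 lay between Cre-negative 2 and Cre-negative 1. The log2 fold change was -0.46 ± 0.31 (95% interval -1.19 to 0.27), with the smallest unadjusted p of the 8 genes tested at 0.18 (edgeR adjusted p = 0.977), and it stayed negative when any 1 mouse was left out. The genes with the most similar profile, by the root mean square difference of centred log2(CPM + 1) over the 5 libraries, were Prkag2 (0.06), Ctu2 (0.06), Amigo3 (0.07), Map3k14 (0.08) and Bcat2 (0.09), of 14018 compared. Its near-identical neighbour Aldh1a7 measured 5.42 and 10.9 CPM in Cre-positive mice 1 and 2, against 12.7, 5.19 and 13.5 CPM in Cre-negative mice 1, 2 and 3.

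Aldh1a2 (chr9:71215789-71296243, plus strand) encodes retinal dehydrogenase 2, the enzyme of stromal cells, mesothelium and intestinal dendritic cells. It measured 13.7 and 17.7 CPM in Cre-positive mice 1 and 2, against 47.4, 19.8 and 11.2 CPM in Cre-negative mice 1, 2 and 3. Cre-negative 1 stood above the other mice, and both Cre-positive mice lay inside the Cre-negative range. The means were 15.7 ± 2.82 CPM (SD, n = 2) in Cre-positive mice and 26.2 ± 18.9 CPM (SD, n = 3) in Cre-negative mice. The log2 fold change was -0.72 ± 0.58 (95% interval -2.10 to 0.65; edgeR adjusted p = 0.977), and it was 0.05 without Cre-negative 1.

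Markers of the outer wall had a like distribution over the mice. The summed level of 8 mesothelium markers was 245 and 311 CPM in Cre-positive mice 1 and 2, against 1117, 582 and 255 CPM in Cre-negative mice 1, 2 and 3. Wt1, a mesothelial transcription factor gene, measured 6 and 6.53 CPM in Cre-positive mice 1 and 2, against 29.0, 11.7 and 5.70 CPM in Cre-negative mice 1, 2 and 3. Of the 8 markers, 6 were highest in Cre-negative 1 and lowest in Cre-negative 3 as Aldh1a2 was, beside 969 of the 14352 genes tested. So were 6 of 9 fibroblast, 5 of 10 smooth muscle and 3 of 6 dendritic cell and macrophage markers tested. The full library order of Aldh1a2 was found in 3 mesothelium markers (Upk1b, Lrrn4 and Wt1) and 2 smooth muscle markers (Des and Actg2), against 1.31% of all genes tested. The 8 mesothelium markers had negative log2 fold changes, none passed the test, and their median was -0.86, beside -0.04 over all genes tested. The 10 smooth muscle markers also had negative log2 fold changes with none called (median -0.83), and their summed level was 1313 and 1576 CPM in Cre-positive mice 1 and 2, against 4052, 2040 and 1571 CPM in Cre-negative mice 1, 2 and 3. Fibroblast markers summed to 433 and 261 CPM in Cre-positive mice 1 and 2, against 819, 418 and 218 CPM in Cre-negative mice 1, 2 and 3 (median log2 fold change -0.32 over 9 tested, none called). Each of these 3 sums was highest in Cre-negative 1. Dendritic cell and macrophage markers summed to 59.6 and 19.6 CPM in Cre-positive mice 1 and 2, against 63.0, 28.7 and 19.9 CPM in Cre-negative mice 1, 2 and 3. That sum too was highest in Cre-negative 1, and Cd209a and Ccr7 were not in the table used. Single genes of this list differed. Zbtb46, Adgre1 and Mrc1 were highest in Cre-negative 1, while Csf1r, Cd68 and C1qa were highest in Cre-positive 1. The dendritic cell genes Itgax, Xcr1, Flt3 and Clec9a did not pass the filter and were also highest in Cre-positive 1. That library had 37, 12, 7 and 7 counts of them in turn, against 2, 1, 1 and 2 counts for Cre-negative 1. The part of these cell types in the Aldh1a2 values was not tested.

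**Figure D3:**
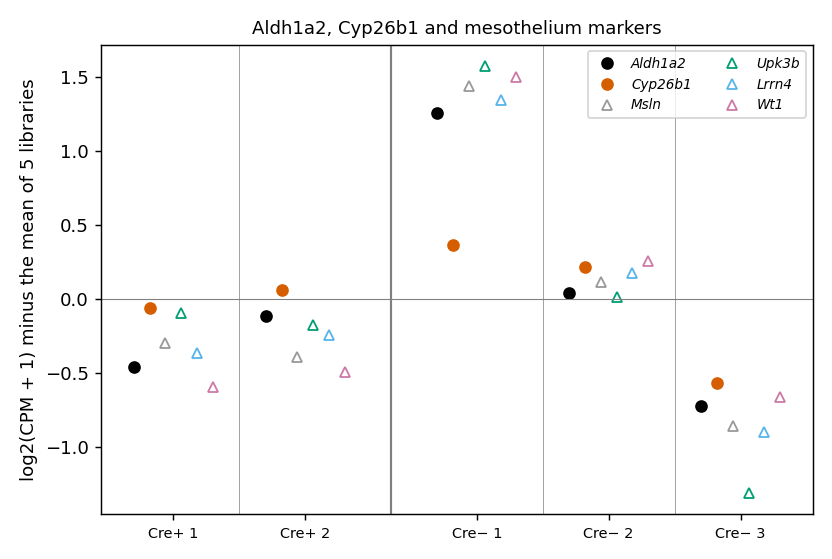
Difference of each library's log2(CPM + 1) from the gene's mean over the 5 libraries (vertical axis) for Aldh1a2 and Cyp26b1 (filled circles) and the mesothelium markers Msln, Upk3b, Lrrn4 and Wt1 (open triangles), by library (horizontal axis, Cre+ for Cre-positive and Cre− for Cre-negative). All 6 genes shown are highest in Cre-negative 1 and lowest in Cre-negative 3, Cyp26b1 on 4 to 10 counts per library; of the 8 mesothelium markers, Gpm6a and Muc16, not shown, are lowest in Cre-positive 1.

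Cyp26b1 (chr6:84571414-84593908, minus strand), a retinoic acid hydroxylase gene, was near the detection limit. It gave 7 and 10 counts (1.35 and 1.55 CPM) in Cre-positive mice 1 and 2, against 9, 10 and 4 counts (2.16, 1.85 and 0.652 CPM) in Cre-negative mice 1, 2 and 3. The exact Poisson 95% intervals of the libraries all overlapped, from 0.545 to 2.79 CPM for Cre-positive 1 and from 0.178 to 1.67 CPM for Cre-negative 3, and they cover counting error only. No difference between the groups was detected at this depth (log2 fold change -0.06 ± 0.68; 95% interval -1.66 to 1.55; edgeR adjusted p = 0.993). Cyp26a1 and Cyp26c1, the related hydroxylase genes, were not in the table used, which held no gene with fewer than 10 counts in all.

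**Figure D4:**
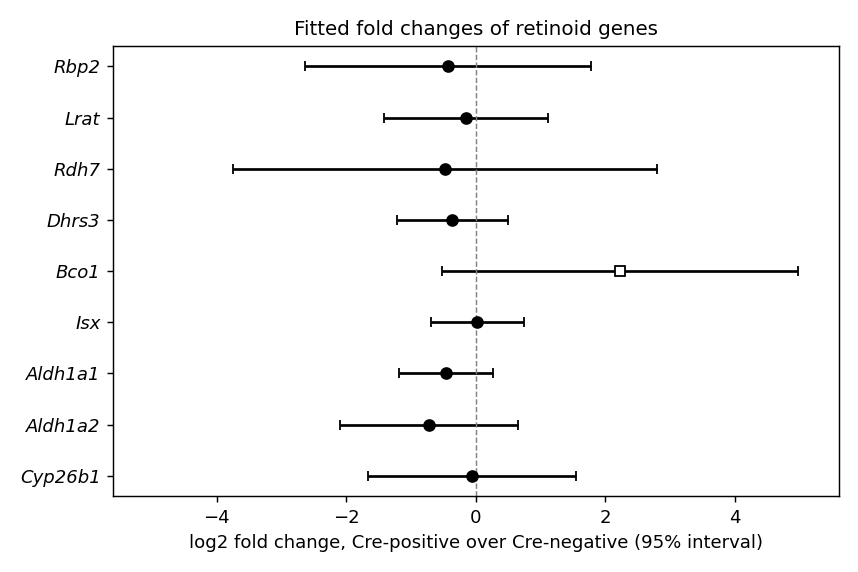
Log2 fold change between Cre-positive and Cre-negative intestine, Cre-positive on top (horizontal axis) with its 95% interval for the 9 genes, from edgeR; the open square is Bco1, fitted without a filter on low counts. Every interval includes 0, from the narrowest, Isx and Aldh1a1, to the widest, Rdh7.

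Levels of different genes were ordered after division by exon length, taken as all annotated exons of the gene merged. This can exceed the length of the transcript present. Aldh1a1 had 4937 bases in 21 exon blocks, and its near-identical neighbour Aldh1a7 had 2066 bases in 13. A shorter length would raise the value of Aldh1a1, so its place beside Isx depends on the annotation. The order by mean over the 5 libraries was Rbp2 (65.7 ± 46.8 CPM per kb, SD over all 5 mice), Isx (34.9 ± 8.68), Aldh1a1 (26.8 ± 8.12), Dhrs3 (13.4 ± 4.19), Aldh1a2 (9.72 ± 6.46), Rdh7 (3.98 ± 3.40), Lrat (2.99 ± 1.32), Cyp26b1 (0.283 ± 0.106) and Bco1 (0.211 ± 0.236), all in CPM per kb. The ranges of all neighbours in this order overlapped except those of Lrat and Cyp26b1. Rbp2 exceeded Isx in 3 of 5 libraries and Aldh1a1 exceeded Dhrs3 in 5 of 5. In Cre-positive 1 Rbp2 stood at 12.5 CPM per kb, below Isx at 29.2 and Aldh1a1 at 18.3 CPM per kb.

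The other genes of the pathway gave no call either. Of 48 further retinoid genes listed, 34 were in the table used and 28 were tested, and edgeR called 0. Log2 fold changes were negative for 23 and positive for 5, with a median of -0.29, while over all genes tested 45.5% were positive and the median was -0.04. The groups did not overlap for 5 of the 28 (17.9%), all lower in Cre-positive intestine, beside 18% of all genes tested without regard to direction and 10.2% with Cre-positive lower. These were Scarb1, Pnliprp2, Aldh1a3, Rdh5 and Akr1b8. Pnliprp2, a lipase gene that can act on retinyl esters, measured 13.0 and 15.2 CPM in Cre-positive mice 1 and 2, against 27.6, 43.2 and 16.6 CPM in Cre-negative mice 1, 2 and 3 (log2 fold change -1.04 ± 0.42; unadjusted p = 0.041, edgeR adjusted p = 0.977). Aldh1a3, retinal dehydrogenase 3, measured 2.71 and 3.26 CPM in Cre-positive mice 1 and 2, against 6.71, 7.6 and 4.07 CPM in Cre-negative mice 1, 2 and 3 (log2 fold change -1.02 ± 0.43; unadjusted p = 0.049, edgeR adjusted p = 0.977). Akr1b8, an aldo-keto reductase, averaged 3.06 CPM over Cre-positive mice and 4.56 CPM over Cre-negative mice, without passing the test (edgeR adjusted p = 0.977). Its groups nearly met, with Cre-positive 2 at 3.42 CPM (22 counts) and Cre-negative 1 at 3.59 CPM (15 counts). Rdh5 is a retinol dehydrogenase gene whose exons overlap Bloc1s1 on the same strand. It averaged 2.15 CPM over Cre-positive mice and 2.93 CPM over Cre-negative mice (edgeR adjusted p = 0.977). Its counts, 11 to 17 per library after rounding, were not whole in 4 libraries.

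The genes with the highest mean CPM of each role differed in their spread between mice. The SD of log2(CPM + 1) over the 5 libraries was 2.98 for Plb1, 0.91 for Cd36 and 0.75 for Bco2. These values lay above the 90th percentile of all genes tested, 0.71. It was 0.60 for Aldh1a7, 0.55 for Rdh9 and 0.25 for Rxra, where the median gene tested had 0.34. Plb1, a brush border phospholipase that hydrolyses retinyl esters, measured 6.58 and 1510 CPM in Cre-positive mice 1 and 2, against 902, 265 and 208 CPM in Cre-negative mice 1, 2 and 3, and Cre-positive 1 stood below every other mouse. Per kb of exon, Dgat1, a diacylglycerol acyltransferase gene that can also esterify retinol, was above Plb1 in that role, at a mean of 115 against 49.6 CPM per kb over the 5 mice. Dgat1 measured 133 and 498 CPM in Cre-positive mice 1 and 2, against 373, 304 and 455 CPM in Cre-negative mice 1, 2 and 3, again lowest in Cre-positive 1. Bco2, the enzyme of eccentric carotenoid cleavage, measured 7.55 and 18.3 CPM in Cre-positive mice 1 and 2, against 18.9, 12.6 and 34.2 CPM in Cre-negative mice 1, 2 and 3. Cd36, a lipid and carotenoid uptake gene, measured 15.9 and 37.3 CPM in Cre-positive mice 1 and 2, against 31.2, 12.2 and 62.1 CPM in Cre-negative mice 1, 2 and 3. Both Bco2 and Cd36 were highest in Cre-negative 3, and the groups overlapped. Rdh9, of the Rdh7 cluster, measured 48.8 and 125 CPM in Cre-positive mice 1 and 2, against 104, 71.7 and 60.0 CPM in Cre-negative mice 1, 2 and 3, and Rdh16 of that cluster ran from 8.52 to 31.1 CPM over the 5 mice. Rdh1 did not pass the filter, at 1 to 8 counts, and Rdh19 was not in the table used. Rxra, the gene of the common partner of nuclear receptors, was the steadiest of these, at 44.3 and 67.0 CPM in Cre-positive mice 1 and 2, against 68.1, 61.0 and 62.9 CPM in Cre-negative mice 1, 2 and 3. Of the RAR genes, Rara and Rarg were tested and not called, at log2 fold changes of -0.40 ± 0.37 and 0.74 ± 0.79, and Rarb was not in the table used.

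**Figure D5:**
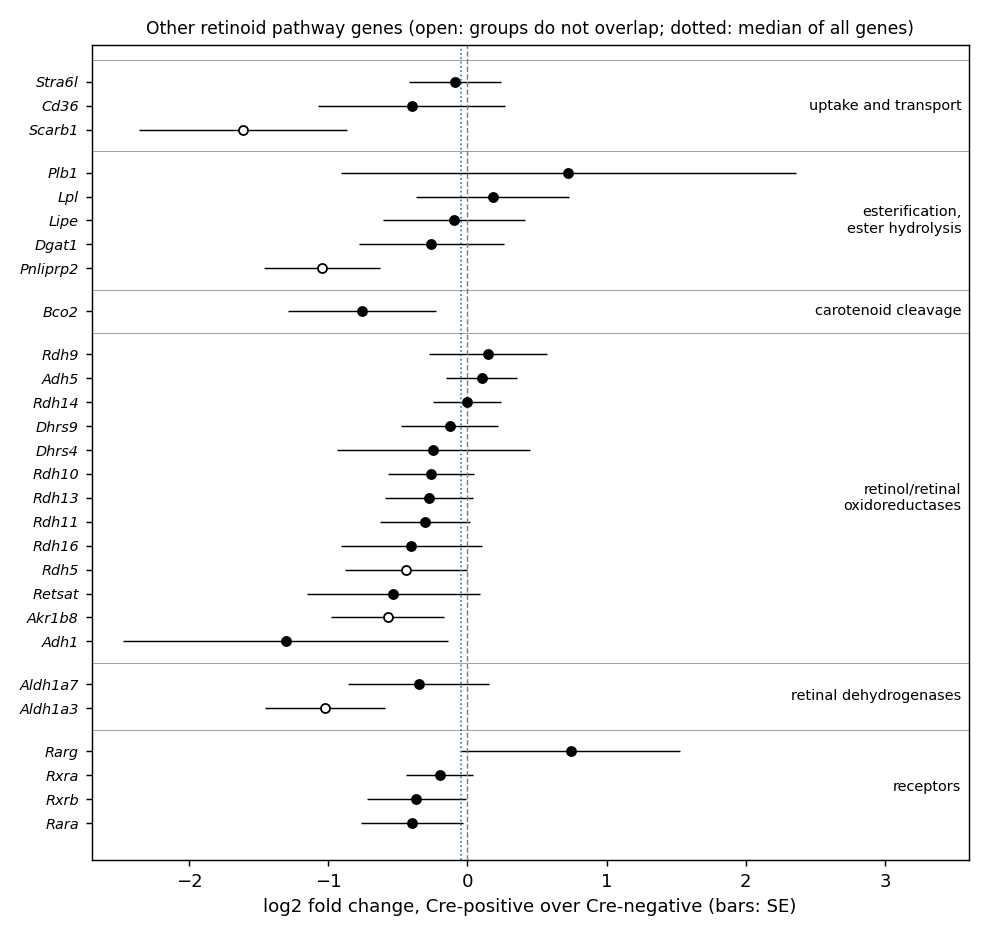
Log2 fold change, Cre-positive against Cre-negative (horizontal axis, bars give the SE) for the 28 other retinoid genes tested, by role; open circles are genes whose groups do not overlap and the dotted line is the median of all genes tested at -0.04. The values run from -1.61 for Scarb1 to 0.74 for Rarg, with 23 genes below 0.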

How the data were processed

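RNA of small intestine from 5 mice was sequenced, 1 library per mouse. Estimated counts for 19198 gene symbols were deposited by the authors as 1 table; the submitters' processing notes name Partek and mm10, while aligner, gene models, strandedness and read assignment were not given in the sources used here. Estimated counts were rounded to whole numbers. Mice were grouped by the genotype label. The fit was edgeR 4.0.16 (R 4.3.3) on all genes: filterByExpr (minimum count 10; 14352 genes kept, 4846 removed), TMM scaling, a robust quasi-likelihood test on genotype and Benjamini-Hochberg adjustment, threshold 0.05. With a smaller group of 2, a gene can pass this filter through Cre-positive libraries alone. SEs are the fold change over the square root of F, and 95% intervals use the t distribution. DESeq2 1.42.0 and limma 3.58.1 (voom) were alternatives. Exon lengths are from GENCODE M21 on GRCm38, which held 98.6% of the symbols; exons of the 9 genes overlapped no other gene's.

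The members, gene lists and tests were chosen with earlier results of these data known. Named genes are the 9 members; of the other retinoid genes, those whose groups do not overlap, those with an unadjusted p under 0.05, the highest of each role and near-identical relatives of members; and the 5 closest profiles of the member with the highest mean and smallest p (Aldh1a1 for both). Promoter windows were chosen after values were seen. Mitochondrial genes took 17.3% to 23.8% of counts. The labels give mouse numbers but tie no mouse to a litter, sex or batch. In the remaining marker lists edgeR made no call: enterocyte (12 tested, median log2 fold change 0.17), proximal (10, -0.65), distal (11, 0.27), endothelium (5, -0.01), dendritic cell and macrophage (6, 0.18), adipocyte (1, -0.27), pancreas (1, -0.53) and goblet cell (7, 2.50). DESeq2 called 4 of the 7 goblet cell markers and none of the other lists.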

Additional observations from a re-analysis of the deposited data

How the results depend on the processing

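Under every alternative run, 0 of the 9 genes were called. The number of genes called in all was 0 in the main test and under RLE, upper-quartile and total-count scaling, limma-voom, no filter, a filter of 5 CPM in 2 libraries, fitting without robust estimation and an adjusted p threshold of 0.1. It was 19 with DESeq2 (12 higher, 7 lower), and leaving out each mouse gave 0 to 58, the 58 being higher genes without Cre-positive 2. With a mouse left out, log2 fold changes ran from -2.52 to 0.42 for Rbp2, -5.09 to 0.50 for Rdh7, -1.17 to 0.47 for Lrat, -0.21 to 0.30 for Isx, -0.68 to -0.21 for Aldh1a1, -1.04 to 0.050 for Aldh1a2 and -0.86 to 0.057 for Dhrs3. A reversed sign was seen without Cre-positive 1 (Rbp2, Rdh7, Lrat and Dhrs3 at 0.057, and Cyp26b1 at 0.067), without Cre-negative 3 (Rbp2 at 0.27, Rdh7 at 0.05, Isx at -0.10), without Cre-negative 1 (Lrat at 0.12, Isx at -0.04, Aldh1a2 at 0.050) and without Cre-positive 2 (Isx at -0.21). Under the other settings only Cyp26b1 reversed, at 0.16 with limma-voom; the cause was not tested. Cyp26b1 passed the filter in 1 of 5 fits without a mouse and not the 5 CPM filter, and Bco1 was fitted only without a filter, so the remaining alternatives gave no value for them. A fit without a Cre-positive mouse assumes that the lone mouse varies like the others. No paired analysis was possible because the labels give each mouse its own number and pair none.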

Other observations

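The profiles closest to those of Rbp2 and Aldh1a2 were looked up after the values of both genes had been seen, by the root mean square difference of centred log2(CPM + 1) over the 5 libraries, among 14018 genes. Closest to Rbp2 were Gpr155 (0.10), Tmem86a (0.12), Slc16a10 (0.14), which encodes an aromatic amino acid transporter, Maob (0.14) and Ddc (0.15), which encode enzymes of monoamine metabolism. Closest to Aldh1a2 were Ano1 (0.06), the chloride channel gene of the interstitial cells of Cajal, Zfpm2 (0.06), Crip2 (0.10), Zbtb7c (0.10) and Mt2 (0.10). Goblet cell markers, of the lineage that Math1Cre*PR targets, summed to 5080 and 2281 CPM in Cre-positive mice 1 and 2, against 574, 994 and 1364 CPM in Cre-negative mice 1, 2 and 3. The groups did not overlap for 6 of the 7 tested, all higher in Cre-positive mice. Among all genes tested this held for 18% in either direction and 7.89% with Cre-positive higher. Of the 7, edgeR called none, while DESeq2 called Clca1 (adjusted p = 0.00144), Tff3 (adjusted p = 0.0163), Zg16 (adjusted p = 0.033) and Agr2 (adjusted p = 0.0447), all higher in Cre-positive intestine.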
